A study of Drosophila melanogaster with 12 samples.

Results

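The ecdysone response was followed through 10 genes in wing imaginal discs of *ash2* and *ash1* mutants: the receptor genes *EcR* and *usp*, the early and prepupal regulators *br*, *Eip74EF*, *Eip75B*, *Eip93F* and *ftz-f1*, and the ecdysone-inducible genes *ImpE1*, *ImpE2* and *ImpE3*. They were listed by name and matched by symbol, synonym or gene ID to the probe annotation of the array, which is dated 2007. Of the 10 genes, 8 had a probe, with 13 probes in all, among 11750 genes with a value in the series. *Eip74EF* and *Eip75B* were not matched and were not analysed here.

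The discs came from wandering larvae staged by their blue gut, and each mutant was set on dual-channel arrays against 1 pool of disc RNA from the isogenic line w1118;+;+. The mutants were ash2-I1 (w1118;+;ash2I1), ash2-112411 (w1118;+;ash2112411) and ash1-22 (ash122/ash122F2A), all without added treatment. By the methods, the mutants had received chromosomes X, Y and 2 of that line, so both sides share w1118. The third chromosome, which carries *ash1*, *ash2*, the *ImpE* genes, *Eip93F* and *ftz-f1*, is not among those named, so its background and the mutation cannot be told apart. From every allele 2 extractions of RNA were made, and both were hybridized on 2 arrays with the dyes exchanged, 12 arrays in all. ash2-I1 larvae die as late larvae or early pupae and have small, misshapen discs, ash2-112411 is weaker and lethal at the pharate stage with a few adults, and ash1-22 is a null allele. Every value below is a log2 ratio of mutant over reference, genes that changed over 1.5-fold with an adjusted p under 0.05 are said to have risen or fallen, and no level of one gene can be set against that of another.

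Ecdysone is the steroid hormone whose pulses time the moults and metamorphosis of insects. It binds a heterodimer of the nuclear receptors EcR and Ultraspiracle, which switches on a small set of early regulators, among them the *br*, *Eip74EF* and *Eip75B* products, and these in turn control larger sets of late genes. In imaginal discs the rise of the hormone at the end of larval life starts eversion and elongation of the disc, and the *ImpE* genes were first isolated as genes that disc cells switch on in response to it. ASH2 is a subunit of complexes that methylate lysine residues of histone H3, one of which holds the ecdysone receptor coactivator Trithorax-related, and ASH1 is itself a histone methyltransferase.

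The spots measured per array numbered 7542 to 8007 in ash2-I1, 10441 to 11179 in ash2-112411 and 5804 to 10747 in ash1-22, whose array of extraction 2 with the mutant in Cy3 had the fewest. The 2 arrays of an extraction, as deposited, correlated at −0.371 to −0.775, negative because the dyes were exchanged, and arrays of different extractions with the same dye at 0.772 to 0.938. The *ash2* probe fell in ash2-I1 (−1.75 ± 0.16 SE) and ash2-112411 (−1.62 ± 0.16) and was at 0.26 ± 0.16 in ash1-22. *ash1* had no probe in the annotation. Of 8 wing disc marker genes 6 had a value, *vg* and *ap* fell in both *ash2* alleles, *ap* fell in ash1-22 and *salm* rose in ash2-112411, while ratios do not show whether a gene was expressed in the tissue.

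Between 6 and 8 of the 8 genes had a value in each allele, and 4 were on all 4 arrays of it. In ash2-I1, 1 of 5 tested genes rose and 3 fell, against a background of 5.45% and 6.73% of the 6897 genes tested. In ash2-112411, 1 of 7 rose and 3 fell, beside 8.35% and 8.59% of 9733 genes. In ash1-22, 0 of 7 rose and 2 fell, beside 1.79% and 1.18% of 8142 genes, and 3 had an unadjusted p under 0.05 in limma, all of them below 0. The genes that fell were *ImpE2*, *br* and *usp* in ash2-I1, *ImpE2*, *ImpE3* and *br* in ash2-112411, and *ImpE2* and *ImpE3* in ash1-22. Those that rose were *ftz-f1* in ash2-I1 and *Eip93F* in ash2-112411. *Eip93F* had values in ash2-112411 alone, so it entered the tested genes only through the allele where it was high. The tested members had a median log2 ratio of −0.85 (ash2-I1), −0.45 (ash2-112411) and −0.16 (ash1-22), beside 0.02, −0.00 and 0.01 over all genes.

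**Figure D1:**
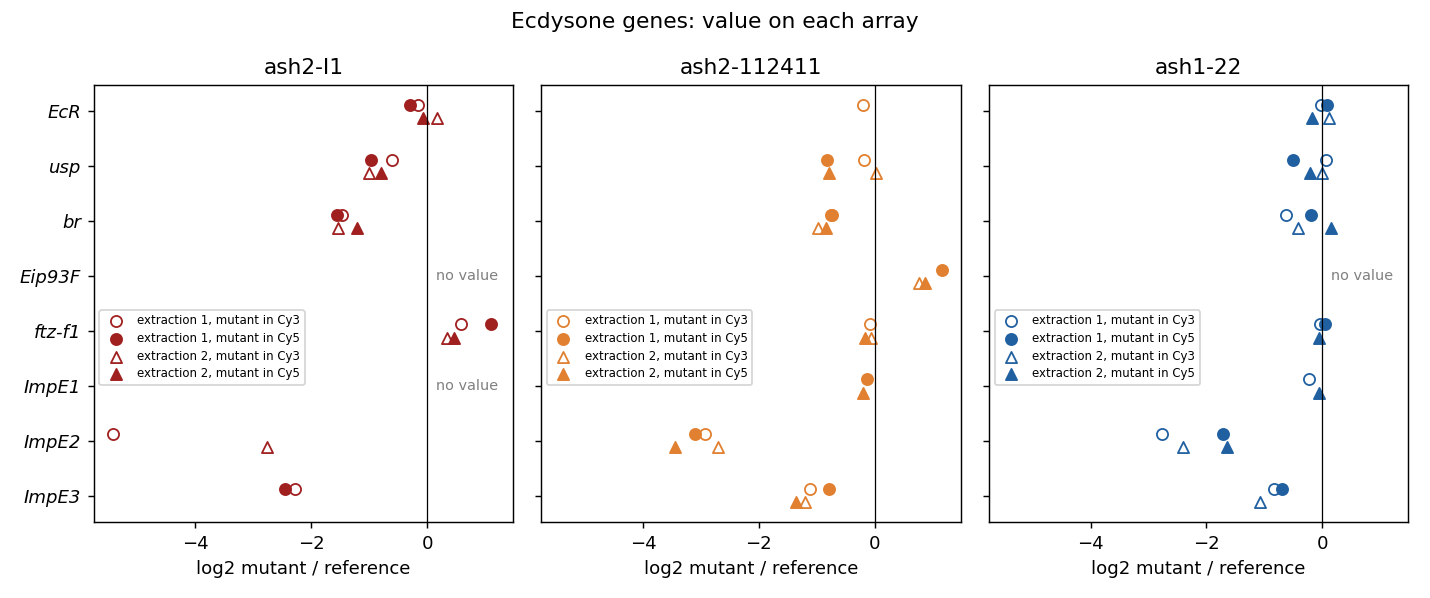
Log2 ratio of mutant over reference (horizontal axis) of the 8 ecdysone genes (rows) on each array of the 3 alleles (panels). Circles are extraction 1 and triangles extraction 2, and filled symbols are arrays with the mutant in Cy5. *ImpE2* lies between −5.43 and −1.64 on every array that measured it, *EcR* lies around 0, and genes without a value in an allele are marked.

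*ImpE2* encodes a protein that disc cells export through their apical surface and was the gene that fell furthest. In ash2-I1 it was measured on 2 arrays only, at −5.43 in extraction 1 and −2.77 in extraction 2, both with the mutant in Cy3. In ash2-112411 it was at −3.11 and −2.93 in extraction 1 and at −3.45 and −2.71 in extraction 2, the first of each pair with the mutant in Cy5. In ash1-22 the ratios were −1.71 and −2.76 in extraction 1 and −1.64 and −2.40 in extraction 2, in the same order of dyes. All 10 measured arrays were thus far below 0. The arrays of ash2-112411 and ash1-22 overlapped only through the lowest of ash1-22, and ash2-I1 gave the lowest value of all and 1 within the range of ash2-112411.

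The mean log2 ratio of *ImpE2* was −4.10 ± 0.50 (SE, n = 2 extractions, as for every mean below) in ash2-I1, 17.1-fold lower than in the reference. It was −3.05 ± 0.50 in ash2-112411, 8.28-fold lower, and −2.13 ± 0.50 in ash1-22, 4.37-fold lower. The gene fell in each allele (adjusted p in limma = 0.000789, 0.00205 and 0.0386). It was the lowest of 6897 genes in ash2-I1, the lowest of 9733 in ash2-112411 and number 4 from the bottom of 8142 in ash1-22. The SE is shared by the alleles and is set by the 2 ash2-I1 arrays. With each allele fitted alone the SE was 0.08 in ash2-112411 (adjusted p = 6.1e-06) and 0.07 in ash1-22 (adjusted p = 1.9e-07), and 0.49 in ash2-I1. In the shared fit the call in ash1-22 was lost without either extraction of that allele (adjusted p = 0.286 and 0.217), without either extraction of ash2-112411 (0.0511), and without the array with the fewest spots (−1.94, adjusted p = 0.0541). A fall in the ratio can come from less RNA per cell or from fewer cells that express the gene, which cannot be told apart in whole discs.

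The dyes bear on *ImpE2*. In ash1-22 the array with the mutant in Cy5 was higher than that in Cy3 by 1.05 in extraction 1 and by 0.77 in extraction 2, gaps as large as which were seen in 0.115% and 0.955% of the probes of those array pairs. With the mutant in Cy5 only, the mean was −1.67 in ash1-22 and −3.28 in ash2-112411, and with the mutant in Cy3 only −2.58 and −2.82. In ash2-I1 no Cy5 array measured the gene, and a fit to single arrays with a term for the dye gave −3.99. The value of ash2-I1 also rested on which extraction was used, at −2.77 or −5.43.

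**Figure D2:**
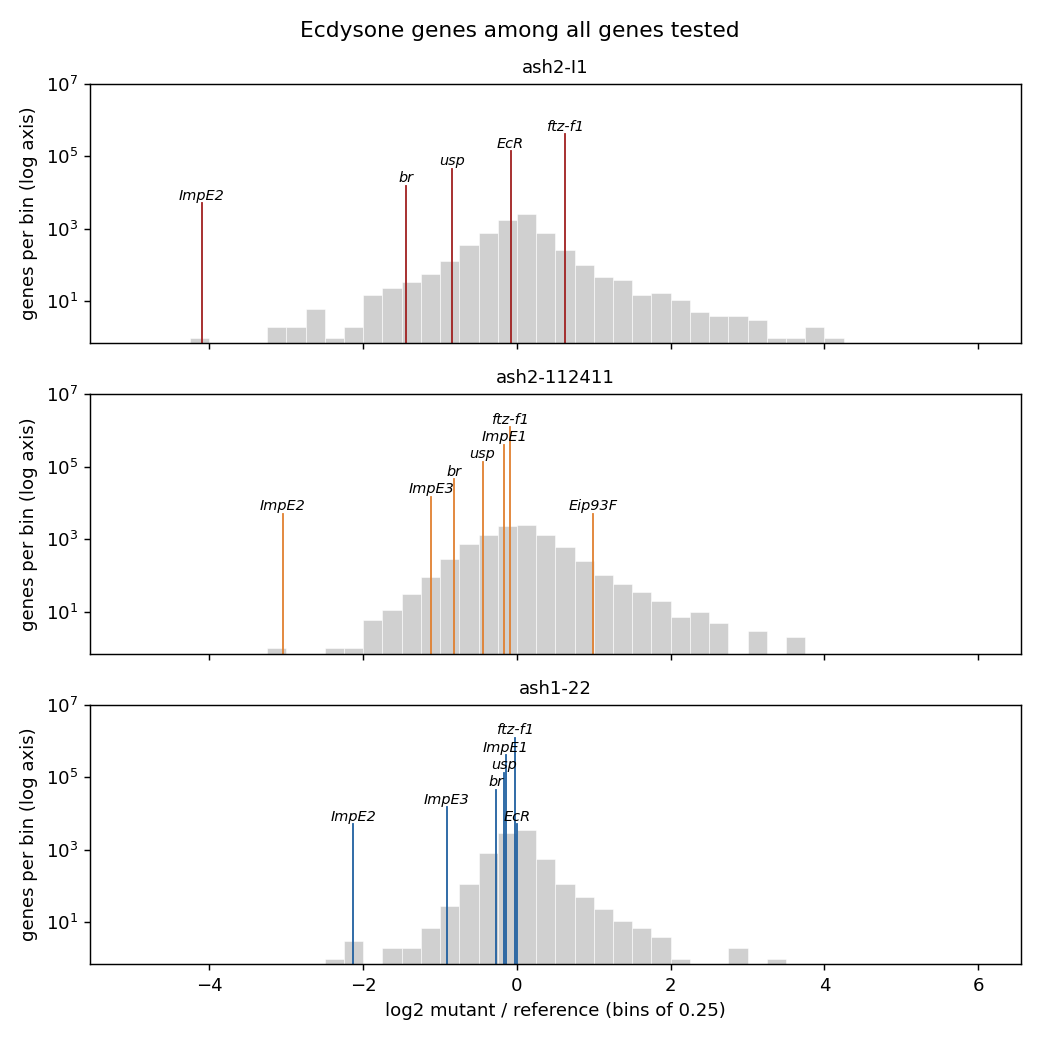
Number of genes (vertical, log axis) by log2 ratio of mutant over reference (horizontal, bins of 0.25) in the 3 alleles, 1 probe per gene, with each tested ecdysone gene marked by a line whose height has no meaning. *ImpE2* stands at the lower edge of each distribution, *ftz-f1* above 0 in ash2-I1, and *Eip93F* above 0 in ash2-112411.

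*ImpE3*, which also encodes a protein exported by disc cells under ecdysone, was lower on all 9 arrays that measured it. In ash2-I1 only extraction 1 gave values, −2.28 and −2.45, so the allele was not tested. In ash2-112411 the arrays of extraction 1 gave −0.78 and −1.11 and those of extraction 2 gave −1.36 and −1.21. In ash1-22 the values were −0.83 and −0.69 in extraction 1 and −1.07 on the 1 array of extraction 2 that measured it, the array with the fewest spots. The ash2-I1 arrays lay below all others, and the other alleles overlapped. *ImpE3* fell 2.17-fold in ash2-112411 (−1.12 ± 0.11, adjusted p in limma = 0.000577) and 1.89-fold in ash1-22 (−0.91 ± 0.11, adjusted p = 0.00775), where it was number 25 from the bottom of 8142 genes. The call in ash1-22 was lost without extraction 1 (−1.07, adjusted p = 0.0682) or 2 (−0.76, adjusted p = 0.0967) of that allele. The annotated *ImpE3* gene overlaps *CG2747*, whose own probe was at 0.13 in ash2-112411 (adjusted p = 0.243).

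*ImpE1*, which encodes a membrane protein with repeats like those of the low density lipoprotein receptor, had no value in ash2-I1 for either of its 2 probes. The probe with more values was at −0.14 and −0.20 in ash2-112411, 1 array per extraction, and at −0.23 and −0.06 in ash1-22. Its means were −0.17 ± 0.08 (adjusted p in limma = 0.121) and −0.15 ± 0.08 (0.253). The other probe was at −0.01 and −0.12 in ash2-112411 and at 0.13 on 1 array of ash1-22. The 95% intervals of the first probe, −0.36 to 0.02 and −0.33 to 0.04, lay within 1.5-fold of the reference, while those of *ImpE2* and *ImpE3* in the same alleles lay beyond it.

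*br* encodes the Broad zinc finger proteins, the early regulators that mark the commitment to pupal development. Its probe 13972, the one measured on every array, was at −1.47 and −1.56 in extraction 1 of ash2-I1 and at −1.53 and −1.21 in extraction 2. In ash2-112411 it was at −0.75 and −0.73 in extraction 1 and −0.97 and −0.84 in extraction 2. In ash1-22 it was at −0.63 and −0.20 in extraction 1 and at −0.42 and 0.15 in extraction 2, each pair with the mutant in Cy3 first. The arrays of the 3 alleles did not overlap: all of ash2-I1 lay below all of ash2-112411, and these below all of ash1-22.

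The mean of *br* was −1.44 ± 0.09 in ash2-I1, 2.72-fold lower (adjusted p in limma = 6.7e-05), and −0.82 ± 0.09 in ash2-112411, 1.77-fold lower (0.000488). In ash1-22 it was −0.28 ± 0.09 (0.0991), with 3 of 4 arrays below 0. The means differed between all 3 pairs of alleles, by −0.62 between the *ash2* alleles (adjusted p = 0.0132), by −1.17 between ash2-I1 and ash1-22 (0.00162) and by −0.54 between ash2-112411 and ash1-22 (0.0233). In ash1-22 the gap between the dyes of *br* was 0.43 in extraction 1 and 0.57 in extraction 2, as large as in 5.08% and 3.39% of probes.

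In ash2-I1 the 5 probes of *br* fell into 2 kinds, though no difference between probes was tested. Probe 3466 followed probe 13972, with −1.65, −1.47, −1.34 and −0.61 on the arrays of ash2-I1, −0.60 and −0.56 on the 2 that measured it in ash2-112411, and −0.57 to 0.24 in ash1-22. It fell in ash2-I1 (−1.27 ± 0.13, adjusted p in limma = 0.000394), just missed 1.5-fold in ash2-112411 (−0.58 ± 0.13, 0.00841) and was at −0.26 ± 0.13 in ash1-22 (0.223). Probes 45, 726 and 2777 lay around 0 in ash2-I1, at −0.02 ± 0.24, −0.06 ± 0.08 and 0.08 ± 0.10, and their arrays ranged from −0.49 to 0.26. Of these 3, only probe 2777 had an adjusted p under 0.05 in any allele (−0.30 ± 0.10 in ash2-112411, 0.0368), and it was under 1.5-fold. In ash2-112411 probes 45 and 726 were at −0.38 ± 0.24 and −0.12 ± 0.08, so the 5 probes were graded there rather than split. Averaging all 5 probes gave −0.62 in ash2-I1 and −0.45 in ash2-112411, and the latter was then under the threshold of 1.5-fold. *br* gives rise to several transcripts, and the sources used here do not say which of them each probe reads.

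**Figure D3:**
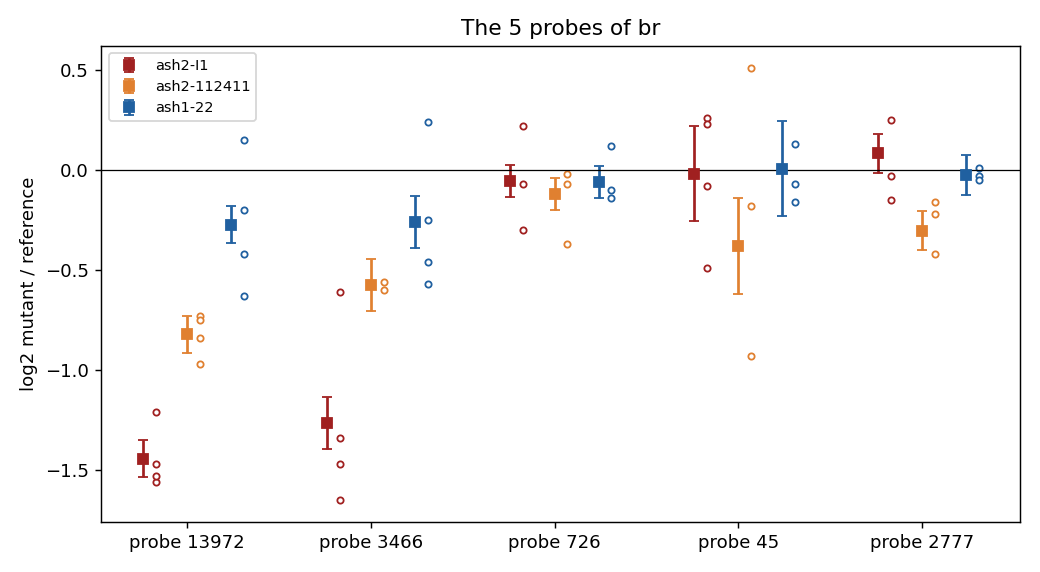
Log2 ratio of mutant over reference (vertical axis) of the 5 probes of *br* in the 3 alleles. Squares with bars are the mean ± SE of 2 extractions, and open circles are single arrays. Probes 13972 and 3466 are lowest in ash2-I1 (−1.44 and −1.27), and the other 3 lie around 0 in that allele.

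*usp*, which encodes the RXR-type partner of EcR, was at −0.61 and −0.97 in extraction 1 of ash2-I1 and at −1.01 and −0.79 in extraction 2. In ash2-112411 it was at −0.19 and −0.83 in extraction 1 and at 0.02 and −0.78 in extraction 2, each pair with the mutant in Cy3 first. In ash1-22 it was at 0.07, −0.50, −0.01 and −0.22 in the same order. Every array of ash2-I1 was thus lower than the reference, while in ash2-112411 both low values came with the mutant in Cy5, by gaps of −0.65 and −0.80 that were as large in 28.2% and 5.12% of probes. *usp* fell in ash2-I1 (−0.85 ± 0.07, 1.80-fold lower, adjusted p in limma = 0.000199). In ash2-112411 it was at −0.45 ± 0.07 (0.00215), under 1.5-fold over both dyes but at −0.81 with the mutant in Cy5 only, and in ash1-22 at −0.16 ± 0.07 (0.1825). ash2-I1 minus ash2-112411 was −0.40 (adjusted p = 0.0268) and ash2-I1 minus ash1-22 −0.68 (0.00493), so *usp* was lowest in ash2-I1.

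*EcR*, the receptor that binds the hormone, was at −0.15 and −0.30 in extraction 1 of ash2-I1 and at 0.18 and −0.07 in extraction 2. In ash1-22 it was at −0.03 and 0.09 in extraction 1 and at 0.11 and −0.18 in extraction 2. The only array of ash2-112411 with a value gave −0.20, so that allele was not tested. Arrays lay on both sides of 0, with means of −0.08 ± 0.09 in ash2-I1 (adjusted p in limma = 0.510) and −0.00 ± 0.09 in ash1-22 (0.9935). The 95% intervals, −0.30 to 0.13 and −0.22 to 0.21, lay within 1.5-fold of the reference.

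*ftz-f1*, which encodes the nuclear receptor that gives prepupal tissues their competence for the next hormone pulse, was the member that rose in ash2-I1. Its arrays were at 0.58 and 1.10 in extraction 1 and 0.35 and 0.47 in extraction 2, with a mean of 0.63 ± 0.10, 1.54-fold over the reference (adjusted p in limma = 0.00294). The call rested on extraction 1: without it the value was 0.41 (adjusted p = 0.0233), and with the mutant in Cy3 only it was 0.47, both under 1.5-fold. In ash2-112411 it was at −0.08 in extraction 1 and at −0.07 and −0.16 in extraction 2, and in ash1-22 at −0.04 and 0.04 in extraction 1 and −0.05 in extraction 2. No array of those alleles reached the lowest of ash2-I1, and the means differed by 0.72 from ash2-112411 (adjusted p = 0.0118) and by 0.65 from ash1-22 (0.0186).

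*Eip93F* encodes a DNA-binding protein that acts in late metamorphosis, in adult fates and in the death of larval tissues. It had values only in ash2-112411, at 1.16 in extraction 1 and at 0.87 and 0.76 in extraction 2. All 3 were above 0, with a mean of 0.99 ± 0.11, 1.98-fold over the reference (adjusted p in limma = 0.00123). With values in 1 allele only, the gene could not be tested with an extraction left out, nor could its difference from the other alleles.

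Over the members, ash2-I1 and ash2-112411 differed at 3 of the 4 genes tested, *usp*, *br* and *ftz-f1*, beside 32.1% of all genes. ash2-I1 and ash1-22 differed at the same 3 of 5, beside 23%, and ash2-112411 and ash1-22 at 1 of 6, *br*, beside 27.1%. *ImpE2* did not pass in any pair: it differed by −1.05 between the *ash2* alleles (95% interval −2.70 to 0.60, adjusted p in limma = 0.284), by −1.97 between ash2-I1 and ash1-22 (−3.62 to −0.33, 0.0851) and by −0.92 between ash2-112411 and ash1-22 (−2.57 to 0.72, 0.355). For *ImpE3* the difference between ash2-112411 and ash1-22 was −0.20 (−0.59 to 0.19). The ratios had been scaled within each set of 4 arrays. Scaled in common, *ImpE2* was at −4.43, −2.34 and −3.12 and *ImpE3* at −0.85 in ash2-112411 and −1.26 in ash1-22, so that their order between those alleles turned, and 0 of 6 members then differed between them.

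**Figure D4:**
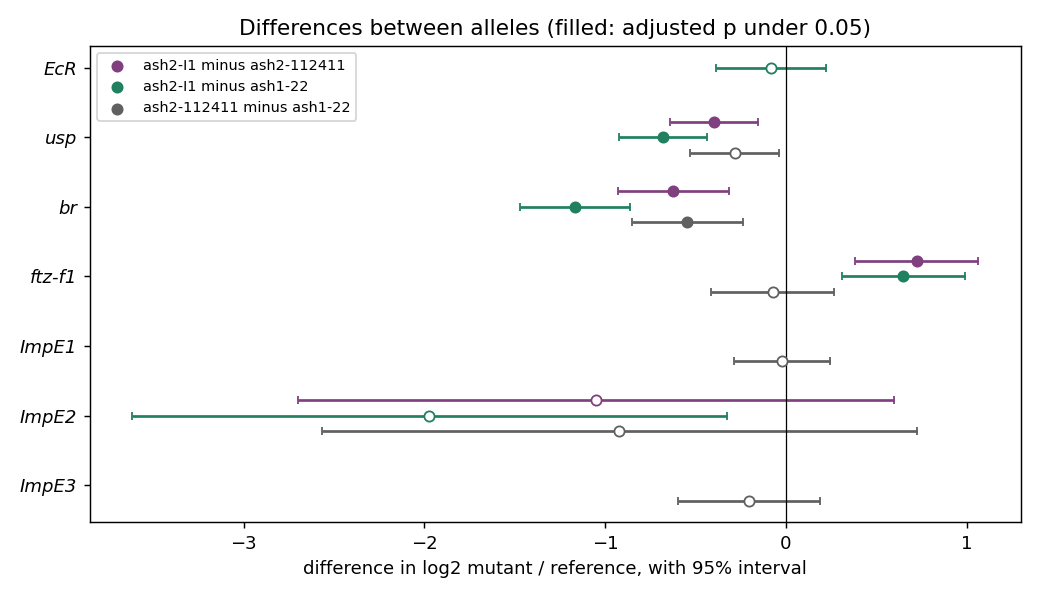
Difference in log2 ratio between pairs of alleles (horizontal axis) for the ecdysone genes measured in both (rows). Points are estimates, bars 95% intervals, and filled points have an adjusted p under 0.05. *usp* and *br* lie below 0 and *ftz-f1* above 0 in both comparisons of ash2-I1, and the intervals of *ImpE2* are the widest.

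The 5 genes whose values over the 6 extractions were nearest to those of *ImpE2*, by Euclidean distance among 5433 genes measured in all of them, were *pst*, *CG9416*, *neo*, *miple1* and *wbl*, at distances of 2.97 to 4.33. *pst* was at −2.62 and −2.61 in ash2-I1, −2.38 and −2.47 in ash2-112411 and −2.20 and −2.36 in ash1-22, so it was about as low in the 3 alleles. *miple1*, which encodes a growth factor of the midkine family, went from −3.30 and −2.15 in ash2-I1 to −0.33 and −0.04 in ash1-22. *neo*, a gene for an apical zona pellucida domain protein, stood between them, at −2.55, −1.43 and −0.69 on average. All 5 fell in both *ash2* alleles, and *pst*, *CG9416* and *neo* in ash1-22. *ImpE2* was lower than all 5 in every extraction except extraction 2 of ash1-22, where *pst* was lower.

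**Figure D5:**
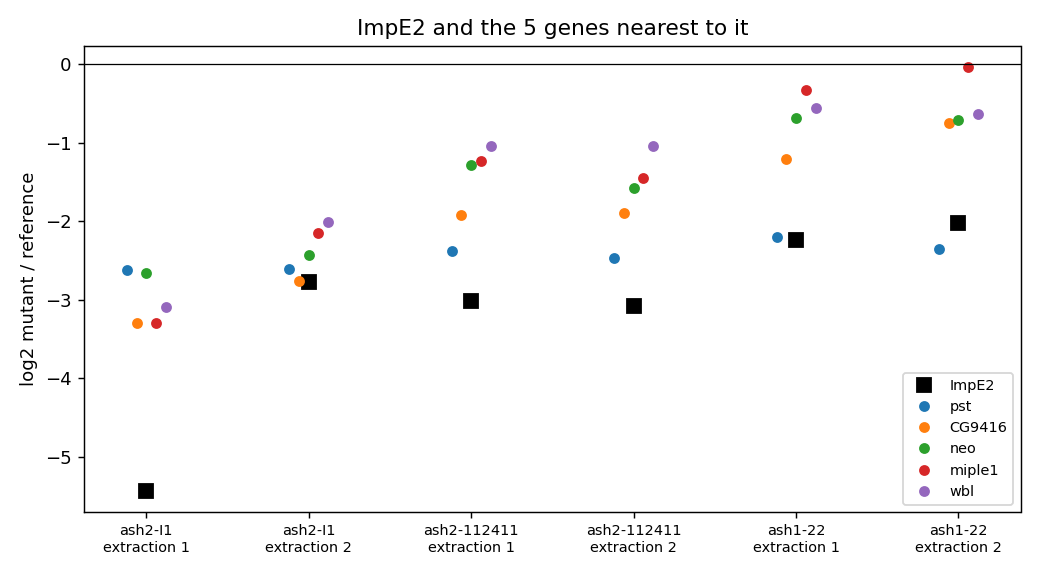
Log2 ratio of mutant over reference (vertical axis) of *ImpE2* (squares) and its 5 nearest genes (circles) in each of the 6 extractions, as means of the arrays that measured them. *ImpE2* stands apart in extraction 1 of ash2-I1 at −5.43, and *pst* keeps between −2.62 and −2.20 throughout.

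Other genes of the pathway were taken from lists of 52 genes, of which 38 had a value. In ash2-I1, 2 of 24 tested rose and 6 fell, in ash2-112411 2 of 32 rose and 6 fell, and in ash1-22 0 of 29 rose in limma (5 were above 0 at an unadjusted p under 0.05) and 3 fell. The share that rose was 8.33% in ash2-I1 and 6.25% in ash2-112411, beside 5.45% and 8.35% of all genes. The share that fell was 25%, 18.8% and 10.3% in the 3 alleles, beside 6.73%, 8.59% and 1.18% of all genes. Their medians were −0.24, −0.12 and 0.02. The small heat shock genes *Hsp26* and *Hsp27*, chaperone genes that ecdysone induces, fell in all 3 alleles. *Hsp27* ranged from −3.14 to −2.19 on the arrays of ash2-I1, from −1.36 to −0.53 in ash2-112411 and from −1.28 to −0.46 in ash1-22, with means of −2.50, −1.01 and −0.85 ± 0.15. *Hsp26* had means of −1.73, −1.01 and −1.02 ± 0.14.

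Among other inducible and late genes, *Sb*, which encodes a transmembrane protease needed for disc eversion, fell in ash2-I1 (−1.84 ± 0.31) and ash2-112411 (−1.10 ± 0.31) and was at −0.53 ± 0.31 in ash1-22 (adjusted p in limma = 0.282). *ImpL2*, which encodes a secreted protein that binds insulin-like peptides, fell in ash2-112411 (−0.78 ± 0.11) and ash1-22 (−0.89 ± 0.11) and was at 0.48 ± 0.11 in ash2-I1 (adjusted p = 0.0112, under 1.5-fold). *Edg91*, a gene for a cuticle protein, went the other way from *Sb* and rose in both *ash2* alleles, by 0.73 ± 0.17 in ash2-I1 and 1.33 ± 0.17 in ash2-112411. In ash1-22 it was at 0.64 ± 0.17 on 2 arrays and just missed the cut (adjusted p in limma = 0.0504).

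*Eip55E*, now named *Cth*, was listed with the other regulators, and whether it acts as one was not examined. It fell in ash2-I1 (−1.17 ± 0.12) and ash2-112411 (−0.70 ± 0.12). *Kr-h1*, a zinc finger gene of the same list that also responds to juvenile hormone, fell in ash2-I1 (−0.97 ± 0.19), where its 3 arrays ran from −1.44 to 0.21. Of the receptor partners and the hormone importer, 8, 7 and 7 were tested in the 3 alleles, and none fell over 1.5-fold in limma. Over all genes 6.73%, 8.59% and 1.18% fell, so a list this small could show no fall at those shares. At an unadjusted p under 0.05, 3 genes of ash2-I1, 5 genes of ash2-112411 and 1 gene of ash1-22 were below 0. The share of all genes at that p was not taken. Those of ash2-112411, *tai* (the lowest, at −0.52), *Smr*, *Alien*, *trr* and *bon*, also had an adjusted p under 0.05 and missed only the fold threshold. The same held for *Smr* and *rig* in ash2-I1. *Oatp74D*, which encodes the importer of ecdysone, rose in ash2-I1 (0.86 ± 0.10) and was at −0.06 in ash2-112411, and *Hr38*, a nuclear receptor that also pairs with Ultraspiracle, rose in ash2-112411 (0.67 ± 0.07) and was at 0.13 in ash2-I1. *trr*, named after its values were seen because its product shares a complex with ASH2, was at −0.11 ± 0.08 in ash2-I1 (adjusted p in limma = 0.367) and −0.31 ± 0.08 in ash2-112411 (0.0210). Of the 14 genes for making and degrading the hormone, 4, 9 and 9 were tested in the 3 alleles. Only *woc*, a zinc finger gene, was called, with −0.61 ± 0.08 in ash2-I1 and −0.69 ± 0.08 in ash2-112411. The 1 of 9 that fell in ash2-112411 was near the 8.59% of all genes, and in ash2-I1 few of the list could be tested.

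The 8 members have 21 neighbouring or overlapping genes in the current annotation. In ash2-I1 3 of 12 tested fell and 1 rose, beside 6.73% and 5.45% of all genes. In ash2-112411 4 of 16 fell and 0 rose, beside 8.59% and 8.35% of all genes. The highest there with an adjusted p under 0.05 in limma was *Pbp95* at 0.36. In ash1-22 no neighbour of 12 passed both thresholds, beside 1.18% of all genes that fell and 1.79% that rose. The neighbours named here were chosen after their values were seen. *Eip63E*, a cyclin-dependent kinase gene next to *ImpE2*, was at −0.59 in ash2-I1 (adjusted p in limma = 0.000907), −1.23 in ash2-112411 (9.6e-05) and −0.35 in ash1-22 (0.0271). *east*, next to *usp*, was at −0.80, −0.74 and −0.34, and *Idh*, next to *ImpE1*, at −1.58, −1.36 and −0.27. *Jon66Ci*, on the other side of *ImpE1*, was at 0.20 in ash2-112411 (adjusted p in limma = 0.0909). The remaining gene that fell in ash2-112411 was *inc*, next to *br*, at −0.64, and the one that rose in ash2-I1 was *Qsox2*, next to *Eip93F*, at 0.72 and at 0.48 in ash1-22 (adjusted p = 0.0301).

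Genes listed as markers of other tissues also moved. Of 12 muscle genes 3 rose and 0 fell in limma in each allele (1, 1 and 0 were below 0 at an unadjusted p under 0.05), of 7, 9 and 8 tested, beside 5.45%, 8.35% and 1.79% of all genes that rose, with values from −0.31 to 2.15 over the 3 alleles. Among 8 fat body genes 3, 5 and 4 were tested in the alleles in that order, of which 1, 2 and 1 rose. *Tsf1* rose by 4.01, 3.51 and 1.81, and *Yp2* rose by 0.69 in ash2-112411 and was at −0.02 in ash1-22. *Lsp2* was at −1.76, 0.44 and 1.92 (± 0.87) and *Fbp1* at −0.20, −0.28 and 1.07 (± 0.45), without passing. In ash1-22 the arrays of *Lsp2* ran from −0.35 to 4.38 and those of *Fbp1* from −0.13 to 2.26. *Fbp2*, from the list of other inducible and late genes, was at 3.83 and 4.27 on the 2 arrays of ash1-22 that measured it. It was not tested in ash1-22 and was at −0.26 in ash2-112411. None of the salivary gland genes was called, of 2 tested in ash2-I1, 5 tested in ash2-112411 and 3 tested in ash1-22 (0, 1 and 2 had an unadjusted p under 0.05 in limma), and their values ran from −0.25 to 0.58. In ash2-112411 the genes listed for trachea, *btl* and *vvl*, rose by 0.64 and 0.71. They were at −0.20 and 0.03 in ash2-I1 and at −0.00 and −0.08 in ash1-22, without passing. Those listed for leg disc, *Dll* and *dac*, fell by 1.44 and 1.06 in ash2-112411. In ash1-22 *Dll* fell by 0.67 and *Scr* was at 0.01. The paper counts *Dll* and *vvl* among the wing-hinge genes of the wing disc itself, so neither is particular to another tissue. Of 3 hemocyte genes tested in ash2-112411, *eater* rose by 0.60, while *He* was at 0.17 and *srp* at −0.05. Of 2 neural genes tested in ash2-I1, *elav* fell by 1.00, on arrays from −1.59 to 0.19, and *brp* was at 0.19. None of 4 neural genes was called in ash2-112411, where *elav* was at 0.48, *Appl* at 0.56, *nSyb* at 0.21 and *brp* at −0.01. The part of these tissues in the values of the ecdysone genes was not tested.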

How the data were processed

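Wing disc RNA of 3 mutants was amplified, labelled and hybridized on 12 dual-channel arrays against 1 isogenic pool. The deposited table holds the authors' log2 ratios, Cy5 over Cy3. By the methods, the authors quantified spots with GenePix Pro, removed those of low quality, corrected background with normexp, normalized within arrays with OLIN and scaled each set of 4 arrays by the median absolute deviation. The submitters' processing notes name limma.

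Signs were turned where the mutant was in Cy3, and both arrays of an extraction averaged. The 6 extractions entered 1 fit of limma 3.58.1 (R 4.3.3) over 11609 probes (prior SD 0.118, 4.34 prior degrees of freedom), with 1 mean per allele tested against 0 or between alleles, after tests on simulated data. Two-sided p-values took a Benjamini-Hochberg adjustment over all probes of a comparison, and calls needed an adjusted p under 0.05 and, against 0, over 1.5-fold. A probe was tested where both extractions had a value. The pool is 1 control sample, so its own spread is in no SE, and p-values measure only the spread between extractions, whose number limits the precision. Of several probes of a gene, the one on the most arrays (or the first ID) gave its value.

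All 10 members were named. Of the other lists, at most 4 called genes were named by size of change, and for *ImpE2*, the member with the largest mean absolute ratio, the 5 nearest genes. The members and lists were chosen with earlier results of these data known. Neighbouring genes and current names came from RefSeq Release 6, whose coordinates served only to find overlapping and next genes. Extraction numbers only name samples. No sequences were given for the probes. Alternatives were a common scale, centred arrays, single arrays as replicates, single dyes, complete spots, single alleles, mean of probes, a replicate block and each extraction left out.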

Additional observations from a re-analysis of the deposited data

Results flagged for a closer look

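Differences between alleles passed an adjusted p under 0.05 in limma at 9 probe and pair combinations of the ecdysone genes. ash2-I1 minus ash2-112411 was −0.40 for *usp*, −0.62 and −0.69 for *br* probes 13972 and 3466 and 0.72 for *ftz-f1*. ash2-I1 minus ash1-22 was −0.68 for *usp*, −1.17 and −1.01 for the same *br* probes and 0.65 for *ftz-f1*. ash2-112411 minus ash1-22 was −0.54 for *br* probe 13972. By gene these were 3 of 4, 3 of 5 and 1 of 6 tested in the 3 pairs, in that order. Over all genes 32.1%, 23% and 27.1% differed. *br* is counted here by 2 of its probes, and its probes 45, 726 and 2777 passed in no pair. In 15 sets of 4 arrays no array stood apart from the other 3 by Dixon's test.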

How the results depend on the processing

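Over 19 pairs of gene and allele, 304 values under an alternative gave 293 on the same side of the thresholds, 10 that no longer passed and 1 that newly passed (*usp* in ash2-112411 with the mutant in Cy5 only, −0.81). Part of this agreement was fixed in advance. Leaving out an extraction of another allele changes only the SE and adjusted p of a value. Uncalled values near 0 could hardly pass, and alternatives that left a gene untestable are not counted. No called value changed direction, while uncalled values near 0 changed sign: *EcR* in ash2-I1 was at 0.02 with the mutant in Cy3 only and 0.06 without extraction 1, *usp* in ash1-22 at 0.03 with the mutant in Cy3 only, and *EcR* in ash1-22 lay between −0.07 and 0.04.

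The count that rose in ash2-I1 (1) was 0 with the mutant in Cy3 only and 0 to 1 with an extraction left out. In ash2-112411 the count that rose (1) was 0 with complete spots and with the mutant in Cy3 only, since *Eip93F* then lacked values. It was also 0 with the replicate block, which left no residual spread to test the gene. With an extraction of ash2-112411 left out *Eip93F* could not be tested either. In other fits with an extraction left out, the lone one was assumed to vary like the other alleles. The count that fell in ash1-22 (2) was 1 with complete spots and with the mutant in Cy5 only, 0 without the array with the fewest spots, an alternative chosen after seeing the data, and 0 to 2 with an extraction left out.

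Between the *ash2* alleles the count that differed (3) was 1 with the mutant in Cy5 only and 1 to 4 with an extraction left out. Between ash2-I1 and ash1-22 it (3) was 5 with single arrays as replicates and 2 to 5 with an extraction left out. Between ash2-112411 and ash1-22 it (1) was 3 with complete spots, 2 with the mutant in Cy5 only, 0 with the mutant in Cy3 only, with a common scale and with the mean of all probes, and 0 to 2 with an extraction left out. The causes were not tested.

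Extraction numbers did not pair the samples: the differences between extraction 1 and 2 correlated between alleles at 0.084, −0.037 and −0.137, and the replicate block changed no call of a gene that it could fit. Missing spots limit *ImpE2* and *ImpE3* in ash2-I1 and *EcR* in ash2-112411.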
